A study of Mus musculus with 19 samples.

Results

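The 38 genes described here encode mitochondrial enzymes that burn pyruvate and fatty acids, 38 of the 49671 genes in the files. They were chosen by name, as the genes whose mouse Ensembl ID maps to a listed enzyme. The list was drawn up with earlier results of these data known. By role, 13 belong to the tricarboxylic acid (TCA) cycle, 10 to pyruvate entry, 12 to fatty acid oxidation and 3 to electron transfer. All 38 were among the 23973 genes that passed the filter on low values, a normalized count of 10 or more in 3 or more libraries.

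Total RNA was sequenced from brain homogenate enriched for microglia, the resident macrophages of the brain, with 1 library for each of 19 mice on the B6D2F1/J background. HEM mice carried a transgene on the X chromosome in which the murine Thy-1 promoter drove human wild-type α-synuclein in its full length. This promoter is known for its activity in neurons, so the transgene is not aimed at microglia themselves. WT mice were the controls. The groups were HEM at 13 months of age (n = 8), WT at 13 months (n = 4), HEM at 3 months (n = 4) and WT at 3 months (n = 3).

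The endogenous gene of that promoter, Thy1, had normalized counts of 5205 to 37356 (median 6634) in HEM and 2362 to 7909 in WT at 13 months, and of 18306 to 51370 in HEM and 3367 to 10886 in WT at 3 months. Reads assigned to genes ranged from 63.3 to 95.8 M (M, 1000000 reads) for HEM at 13 months, 93.2 to 124.5 M for WT at 13 months, 74.7 to 112.9 M for HEM at 3 months and 83.0 to 106.8 M for WT at 3 months. The 10 microglia markers, among them P2ry12, Tmem119 and Csf1r, lay at the 91.0th to 99.9th percentile of tested genes. All 19 libraries held Ddx3y, a Y-linked gene, at 7078 to 10109 and Xist at 6.37 to 77.4. At 13 months 12 of 12 neutrophil markers and 10 of 10 immediate early genes were called higher in HEM, and 7 of 10 choroid plexus and ependyma markers lower. HEM replicates 1 and 11 at 13 months and HEM replicate 3 at 3 months stand apart from their groups by earlier work on these files. Their groups' highest neuron marker levels were in HEM replicate 1 at 13 months (12.7, mean log2) and HEM replicate 3 at 3 months (12.4), and HEM replicate 11 at 13 months had the highest microglia marker level (16.3). Counts of called genes are given with and without them.

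Pyruvate made from glucose enters the mitochondrion through a carrier and is turned into acetyl-CoA by the pyruvate dehydrogenase complex, which the pyruvate dehydrogenase kinases switch off. Fatty acids enter as carnitine esters and are cut to acetyl-CoA by repeated rounds of beta-oxidation. The TCA cycle oxidises acetyl-CoA, and its electrons, with those of fatty acid oxidation that pass through the electron transfer flavoprotein, feed the respiratory chain. Microglia use glucose and fatty acids flexibly, and activated microglia are known to lean on glycolysis.

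At 13 months genes of all 4 roles were lower in HEM than in WT. Of the 38 genes 32 fell and 0 rose, by limma-trend with Benjamini-Hochberg adjustment over the 23973 genes and a threshold of 0.05 on the adjusted p. Among all tested genes 7.3% were called lower and 4.87% higher, and among the 11296 tested genes with a mean value of at least that of the lowest of the 38 genes 13.7% were called lower. All 38 differences, HEM minus WT on the log2 scale of normalized counts plus 1, were below 0, from −0.79 to −0.24 with a median of −0.47. The median over all tested genes was 0.034. By role, 12 of 13 TCA cycle genes fell (median −0.46), 7 of 10 pyruvate genes (median −0.42), 10 of 12 fatty acid oxidation genes (median −0.50) and 3 of 3 electron transfer genes (median −0.58).

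The mean level of the 38 genes, as mean log2 value in a library, was 12.90, 13.20, 13.11 and 13.14 in the 4 WT libraries and 12.38 to 12.95 (median 12.58) in the 8 HEM libraries at 13 months. Only HEM replicate 7, at 12.95, reached into the WT range. The 38 genes together took 0.437 ± 0.0232% of all reads in genes in WT (SD, n = 4) and 0.341 ± 0.0323% in HEM (SD, n = 8) at 13 months. At 3 months these shares were 0.355 ± 0.00761% in WT (n = 3) and 0.350 ± 0.0269% in HEM (n = 4). The plot of levels by pathway shows WT at 13 months above the other groups in each of the 4 roles. For 38 of 38 genes WT at 13 months had the highest of the 4 group means, against 28.5% of all tested genes.

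**Figure D1:**
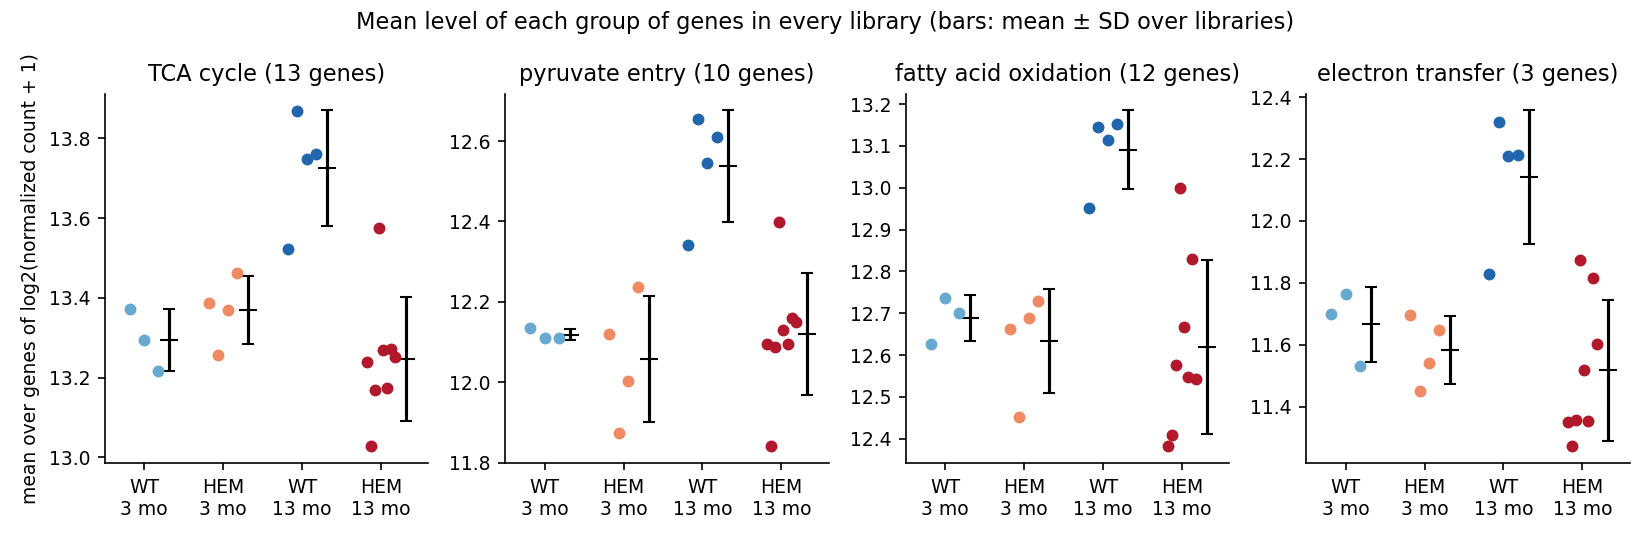
Mean over the genes of each role of log2(normalized count + 1), vertical axis, for every library of the 4 groups, with the mean and SD over libraries as bars. In each panel the 4 WT libraries at 13 months lie above all libraries of the other groups except HEM replicate 7 at 13 months, which exceeds the lowest of the 4.

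**Figure D2:**
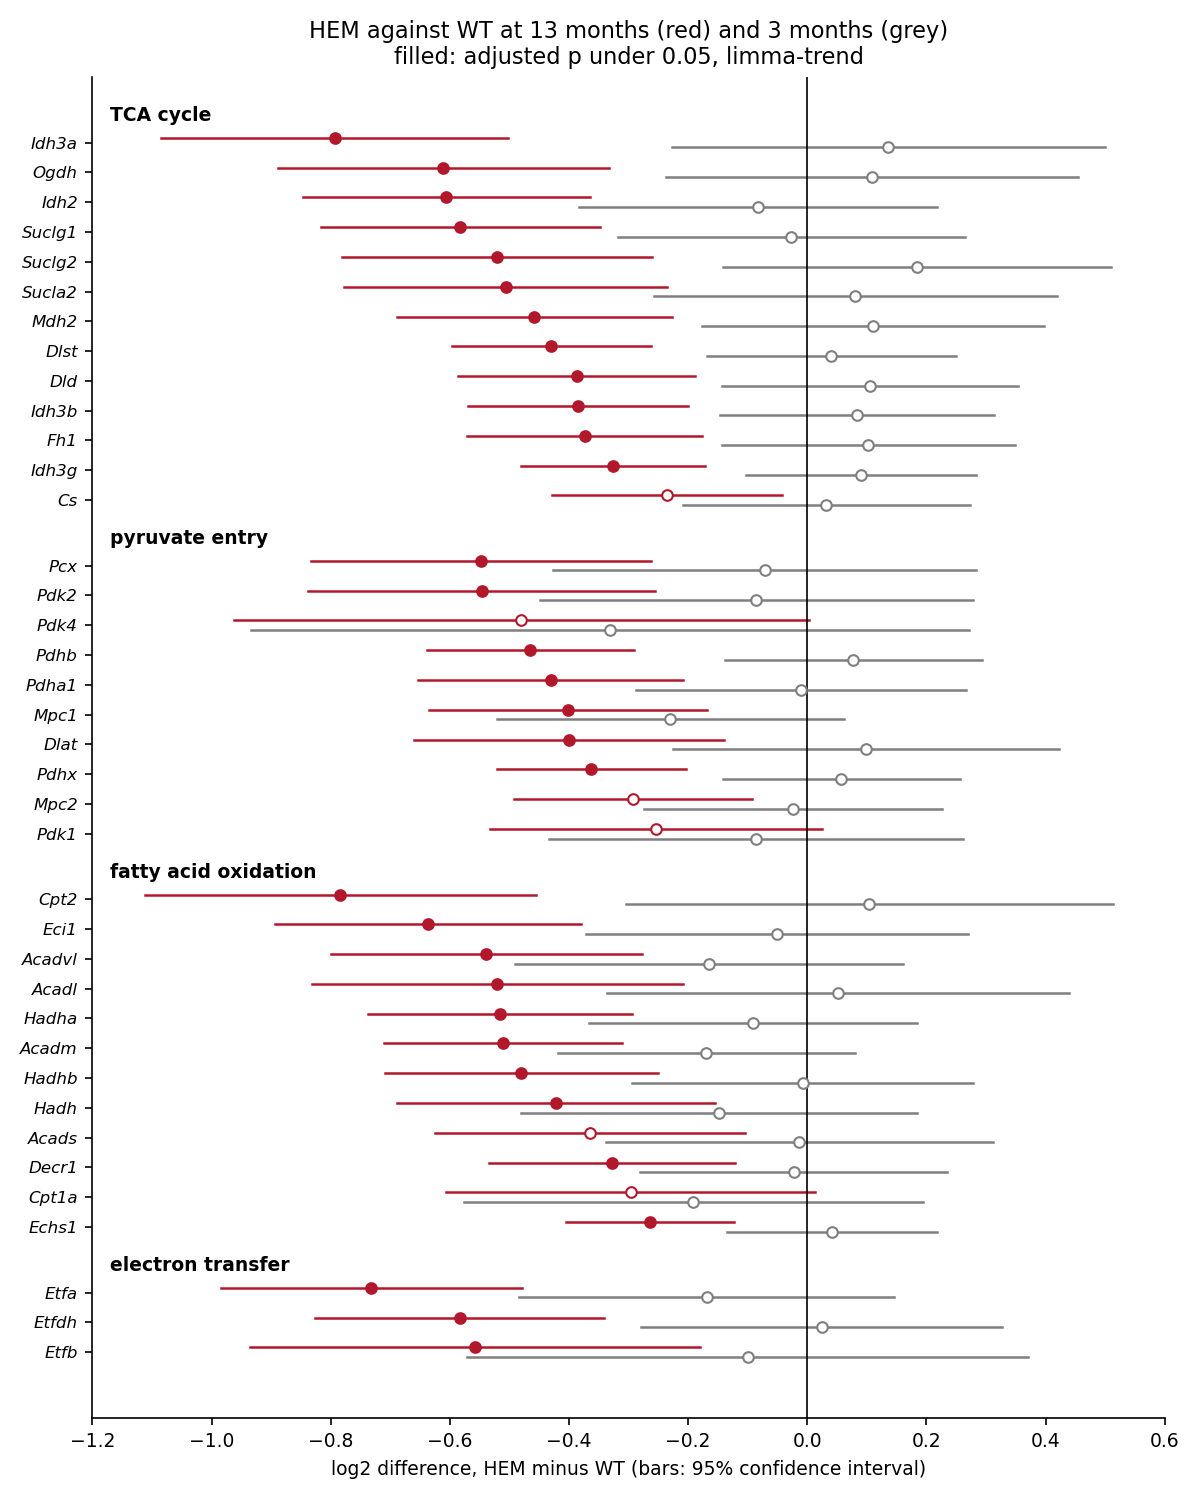
Log2 difference, HEM minus WT, of each of the 38 genes with its 95% confidence interval at 13 months (red) and 3 months (grey), grouped by role; filled points passed the test. All 38 red points lie below 0 and 32 are filled, while the grey points lie on both sides of 0 and none is filled.

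The 13-month count rests on the comparison with 4 WT libraries: without WT replicate 7 it was 19 of 38 (4.02% of tested genes lower), and without the 3 libraries that stand apart 28 (6.15%). Without these 3 libraries the counts in the comparisons described further on were 0 for genotype at 3 months, 2 higher for age in WT (0.638% of tested genes higher), 0 for age in HEM and 0 for the interaction. With the mean level of neutrophil and erythroid markers as a covariate 0 of the 38 were called, with all 38 differences still below 0 and a median of −0.41, and 0 of all tested genes were called either. This marker level itself differed by genotype at 13 months, with a mean of 14.3 in HEM and 12.4 in WT. Standard errors were larger in this fit, for Etfa 0.19 against 0.12 and for Idh3a 0.22 against 0.14.

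In the TCA cycle, the catalytic subunit gene of NAD-dependent isocitrate dehydrogenase had the largest difference of the 38. Idh3a (ENSMUSG00000032279, chromosome 9, 54586334 to 54604661, plus strand) had normalized counts of 6808 to 13322 (median 8925) in HEM at 13 months and of 12291, 19269.9, 16147 and 16124 in WT. Its counts at 3 months were 10398, 9035, 9893 and 11761 in HEM and 10458, 8956 and 8599 in WT. HEM replicate 7 was the 1 HEM library at 13 months inside the WT range, and the other 7 were all below it. The difference at 13 months was −0.79 ± 0.14 (log2, SE; a ratio of 0.577; adjusted p = 0.00238).

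The 2 regulatory subunits of the same enzyme fell too, with smaller differences. Idh3b (ENSMUSG00000027406, chromosome 2, 130279309 to 130284547, minus strand) ran from 9875 to 12807 (median 10664) in HEM at 13 months against 12692, 16373, 14532 and 13425 in WT, with a difference of −0.39 ± 0.088 (adjusted p = 0.00793). X-linked Idh3g (ENSMUSG00000002010, chromosome X, 73778963 to 73786897, minus strand) ran from 9276 to 11623 (median 10444) against 10952, 14676, 13185 and 13959, with a difference of −0.33 ± 0.074 (adjusted p = 0.00742). In both genes 1 of 8 HEM libraries reached the lowest WT value. At 3 months Idh3b held 11479, 12714, 11873 and 13173 in HEM and 11482, 12545 and 10842 in WT, and Idh3g 12646, 11961, 12403 and 12299 in HEM and 11415, 11878 and 11438 in WT. All 4 HEM libraries of that age lay above the 3 WT libraries for Idh3g, which holds for 3.08% of tested genes, and the difference did not pass the test (0.09 ± 0.092).

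The Idh3g promoter is shown because Idh3g is a member with full values whose promoter holds a searched motif. The 250 bases before its start in RefSeq (GRCm38.p6, chrX:73786898-73787147, minus strand) are given 5′ to 3′, with AAGATGGCG, letters bound by YY1, in capitals.
Idh3g: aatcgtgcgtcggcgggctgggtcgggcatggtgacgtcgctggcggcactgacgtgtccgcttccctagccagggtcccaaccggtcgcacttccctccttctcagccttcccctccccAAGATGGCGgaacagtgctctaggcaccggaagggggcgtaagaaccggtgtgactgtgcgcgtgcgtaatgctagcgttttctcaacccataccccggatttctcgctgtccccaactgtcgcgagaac
The motif begins 130 bases before the start, on the gene's own strand.

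The ratios between the 3 subunits at 13 months were computed after Idh3a had been seen to have the largest difference. They were put through the exact two-sided permutation test described below for the kinase ratios, and adjusted together with those. The p values therefore describe differences already seen and are not independent evidence. The log2 ratio of Idh3a to Idh3b was 0.15 ± 0.14 in WT (SD, n = 4) and −0.26 ± 0.23 in HEM (n = 8), a difference of −0.41. For Idh3a to Idh3g it was 0.26 ± 0.10 in WT and −0.20 ± 0.24 in HEM, a difference of −0.47. Idh3b to Idh3g differed by −0.06. The exact permutation p was 0.00808 (adjusted p = 0.0242) for Idh3a to Idh3b and the same for Idh3a to Idh3g. For Idh3b to Idh3g the exact permutation p was 0.428 (adjusted p = 0.64). At 3 months the log2 ratio of Idh3a to Idh3b was −0.32 ± 0.18 in WT (n = 3) and −0.27 ± 0.16 in HEM (n = 4), values near those of HEM at 13 months.

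**Figure D3:**
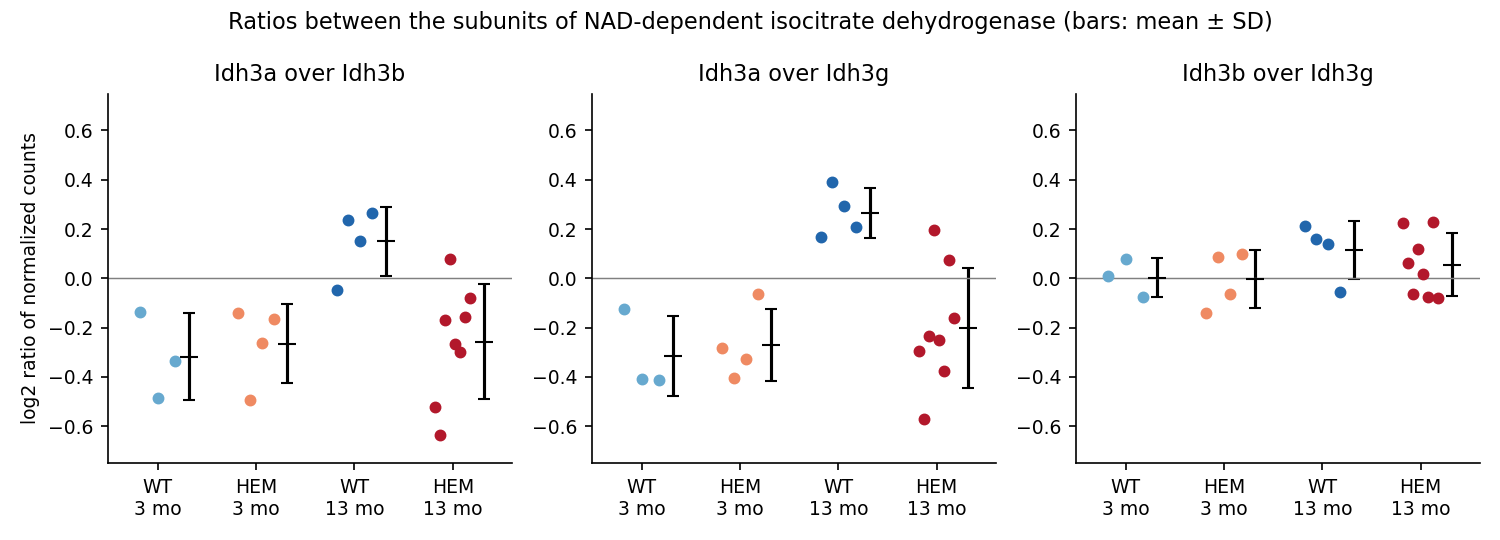
Log2 ratio of normalized counts, vertical axis, for the 3 pairs of isocitrate dehydrogenase 3 subunits in every library, with mean and SD over libraries as bars. The WT libraries at 13 months lie at −0.05 to 0.26 for Idh3a over Idh3b and at 0.17 to 0.39 for Idh3a over Idh3g, above most libraries of the other groups, and no group stands out for Idh3b over Idh3g.

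Idh2 (ENSMUSG00000030541, chromosome 7, 80094846 to 80115392, minus strand), the NADP-dependent isocitrate dehydrogenase of mitochondria, ran from 8706 to 14296 (median 11235) in HEM at 13 months and held 15012, 17140.2, 15608 and 19349.5 in WT. At 3 months its counts were 12983, 9389, 12313 and 11012 in HEM and 12006, 11847 and 12166 in WT. At 13 months every HEM library lay below every WT library, as in 3.98% of tested genes. The difference was −0.61 ± 0.11 (adjusted p = 0.00311).

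The 2-oxoglutarate dehydrogenase complex turns 2-oxoglutarate into succinyl-CoA, and its 3 parts fell together. Dlst (ENSMUSG00000004789, chromosome 12, 85110833 to 85134845, plus strand), the core subunit, ran from 11008 to 13149 (median 11986) in HEM at 13 months against 14353, 16103, 15708 and 18320.2 in WT. Its counts at 3 months were 13765, 11687, 13006 and 14928 in HEM and 14080.1, 12267 and 12504 in WT. The groups did not overlap at 13 months, and the difference was −0.43 ± 0.08 (adjusted p = 0.00286). Ogdh, the first subunit, differed by −0.61 ± 0.13 (adjusted p = 0.0059). Dld, the dihydrolipoamide dehydrogenase that this complex shares with pyruvate dehydrogenase, ran from 7191 to 9549.6 (median 7834) in HEM and held 9969.5, 12158, 11306 and 8972 in WT at 13 months. HEM replicates 1 and 7 reached into the WT range of Dld, and the difference was −0.39 ± 0.095 (adjusted p = 0.0118).

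Succinyl-CoA synthetase, the step that makes ATP or GTP directly, fell in all 3 subunits. These were Suclg1 (−0.58 ± 0.11, adjusted p = 0.00321), the shared alpha subunit, Suclg2 (−0.52 ± 0.12, adjusted p = 0.0103), the GTP-forming beta subunit, and Sucla2 (−0.51 ± 0.13, adjusted p = 0.015), the ATP-forming one. Suclg2 ran from 4204 to 7065 (median 4939.7) in HEM at 13 months and held 8347, 6558, 6762 and 7224 in WT, and only HEM replicate 7 reached the WT range. Fumarase, Fh1, fell by 0.37 on the log2 scale (adjusted p = 0.0139) and malate dehydrogenase, Mdh2, by 0.46 (adjusted p = 0.0106). Cs, citrate synthase, which starts the cycle and is widely used as a marker of mitochondrial content, had the smallest difference of the 38 (−0.24 ± 0.092) and was not called (adjusted p = 0.108). Its counts were 12004 to 18419 (median 15162) in HEM and 15528, 18722, 17804 and 18583 in WT, with 3 of 8 HEM libraries at or above the lowest WT library.

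For pyruvate, the 5 genes of the pyruvate dehydrogenase complex counted here (Pdha1, Pdhb, Dlat, Pdhx and the shared Dld) all fell at 13 months, with differences of −0.46 to −0.36 (median −0.40, log2). Pdhb (ENSMUSG00000021748, chromosome 14, 8165996 to 8173025, minus strand), the E1 beta subunit, ran from 6472 to 8377 (median 7194) in HEM and held 8911, 11530.4, 10336 and 9493 in WT. At 3 months it held 8204, 7119, 8209.7 and 8179 in HEM and 7495, 8053 and 6989 in WT. No HEM library at 13 months reached the lowest WT library, and the difference was −0.46 ± 0.083 (adjusted p = 0.00244). Pdhx, the E3-binding protein, likewise had no overlap (−0.36 ± 0.076, adjusted p = 0.00497), and Dlat, the E2 core, differed by −0.40 ± 0.12 (adjusted p = 0.0406).

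Pdha1 (ENSMUSG00000031299, chromosome X, 160122209 to 160138413, minus strand), the X-linked E1 alpha subunit, ran from 6403 to 10519 (median 8152) in HEM at 13 months against 9429, 11582, 11067 and 11384 in WT. Its counts at 3 months were 7719.8, 7679, 7767 and 8763 in HEM and 8185, 7635 and 8280.2 in WT. HEM replicate 7 alone reached the WT range at 13 months, and the difference was −0.43 ± 0.11 (adjusted p = 0.0121). Of the exon bases of Pdha1 16.1% overlap Map3k15 on the opposite strand, and the strand setting of the counting is not given in the sources used here.

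Of the 3 kinases of the complex that are on the list of genes described here, Pdk2 was called. A further kinase, Pdk3, was counted with the other pyruvate genes below and was called lower at 13 months too. Pdk2 (ENSMUSG00000038967, chromosome 11, 95026258 to 95041354, minus strand) ran from 5680.2 to 10675 (median 7361) in HEM at 13 months and held 8345, 11449, 11803 and 12694 in WT, and it fell by 0.55 on the log2 scale (SE 0.14, adjusted p = 0.0147). At 3 months Pdk2 held 6842, 7503, 6342 and 8751 in HEM and 7448, 8149 and 7677 in WT. HEM replicates 7 and 12 reached the lowest WT value at 13 months.

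Pdk1 (ENSMUSG00000006494, chromosome 2, 71873224 to 71903858, plus strand) ran from 5322 to 9422 (median 7858) in HEM and held 8612, 8402, 7911 and 11299 in WT at 13 months, and 7933, 5805, 7531 and 6570.2 in HEM and 7362, 6620.4 and 8095 in WT at 3 months. Of the 8 HEM libraries 4 lay within the WT range, and the difference did not pass the test (−0.25 ± 0.13, 95% interval −0.53 to 0.02, adjusted p = 0.252). Pdk4 (ENSMUSG00000019577, chromosome 6, 5483351 to 5496309, minus strand), the isoform that fasting and fatty acids induce in many tissues, ran from 994 to 2987 (median 1803) in HEM and held 2187, 2720.4, 2629 and 2461 in WT at 13 months, and 1712, 946, 1204 and 2355 in HEM and 1885, 1805 and 1836 in WT at 3 months. At 13 months only HEM replicate 13, at 2987, reached the lowest WT value of Pdk4, and it lay above the highest. The Pdk4 difference of −0.48 ± 0.23 did not pass either (95% interval −0.96 to 0.0029, adjusted p = 0.204). The ratios among the 3 kinases were compared after their values had been seen, with an exact two-sided permutation test over the 12 libraries (495 regroupings, smallest possible p = 0.00404) and adjustment over the 6 ratios of the Pdk and Idh3 genes, and were not shown to differ: the log2 ratio of Pdk1 to Pdk2 was higher by 0.29 in HEM (exact permutation p = 0.170, adjusted p = 0.339), Pdk4 to Pdk2 by 0.07 (exact permutation p = 0.873, adjusted p = 0.873) and Pdk1 to Pdk4 by 0.23 (exact permutation p = 0.533, adjusted p = 0.64).

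The Pdk2 promoter is shown as the 1 promoter with a searched motif among the listed kinases, which do not include Pdk3. These are the 250 bases before the RefSeq start (GRCm38.p6, chr11:95041372-95041621, minus strand), 5′ to 3′, with the E-box CACGTG, a site of many basic helix-loop-helix factors, in capitals.
Pdk2: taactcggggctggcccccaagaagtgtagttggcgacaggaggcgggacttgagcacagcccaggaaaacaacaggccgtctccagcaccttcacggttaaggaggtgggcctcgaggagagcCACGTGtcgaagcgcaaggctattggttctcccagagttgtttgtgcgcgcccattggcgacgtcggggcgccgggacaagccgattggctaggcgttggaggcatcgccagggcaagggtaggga
The E-box begins 126 bases before the start.

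Of the remaining pyruvate genes, Pcx, the pyruvate carboxylase that refills the cycle with oxaloacetate, fell (−0.55 ± 0.14, adjusted p = 0.0126). The pyruvate carrier is made of 2 proteins. Mpc1 (ENSMUSG00000023861, chromosome 17, 8282904 to 8297661, plus strand) ran from 1534 to 2061 (median 1722) in HEM and held 1969, 2776, 2137 and 2393 in WT at 13 months, and it fell (−0.40 ± 0.11, adjusted p = 0.023). Its partner Mpc2 narrowly missed the threshold (−0.29 ± 0.10, adjusted p = 0.0525), with 3 of 8 HEM libraries at or above the lowest WT library.

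Of the 12 fatty acid oxidation genes Cpt1a and Acads were not called at 13 months. Cpt1a, the outer-membrane carnitine palmitoyltransferase that controls entry, had counts of 9314 to 17074 (median 12249) in HEM and 13566, 14321, 17089 and 16888 in WT at 13 months. The groups overlapped, and the difference was −0.30 ± 0.15 (95% interval −0.61 to 0.01, adjusted p = 0.223). Cpt2 (ENSMUSG00000028607, chromosome 4, 107903981 to 107923610, minus strand), its inner-membrane counterpart, ran from 2282 to 4311 (median 3116) in HEM and held 4129, 5907, 5748 and 5643 in WT. Only HEM replicate 7 exceeded the lowest WT library, and Cpt2 fell by 0.78 on the log2 scale (SE 0.16, adjusted p = 0.00398). The difference between the 2 palmitoyltransferases was not tested.

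The first oxidation of each round is made by acyl-CoA dehydrogenases of different chain length. Acadm (ENSMUSG00000062908, chromosome 3, 153922357 to 153944632, minus strand), the medium-chain enzyme, ran from 7252 to 10760.2 (median 8126) in HEM at 13 months and held 11176, 12698, 11209 and 13406 in WT. At 3 months it held 8859, 7407, 8917 and 8007 in HEM and 9370.2, 9499 and 9051 in WT. HEM lay wholly below WT at both ages, yet the 13-month difference alone passed the test, at −0.51 ± 0.10 (adjusted p = 0.00294) against −0.17 ± 0.12 at 3 months (unadjusted p = 0.171, adjusted p near 1). Wholly lower HEM groups at 3 months were found in 2.78% of tested genes. The very-long-chain enzyme, Acadvl (−0.54 ± 0.12, adjusted p = 0.00858), and the long-chain enzyme, Acadl (−0.52 ± 0.15, adjusted p = 0.027), fell, and the short-chain enzyme, Acads (−0.36 ± 0.12, adjusted p = 0.0629), did not pass. For Acadvl 42.9% of exon bases overlap Dvl2 on the opposite strand, and reads that lie within this part cannot be assigned to 1 of the 2 genes without strand.

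The Acadm promoter is printed because it holds the core letters of the motif of NRF1, a factor known for nuclear genes of mitochondria. Shown are the 250 bases before the RefSeq start (GRCm38.p6, chr3:153944644-153944893, minus strand), 5′ to 3′, with CGCATGCG in capitals.
Acadm: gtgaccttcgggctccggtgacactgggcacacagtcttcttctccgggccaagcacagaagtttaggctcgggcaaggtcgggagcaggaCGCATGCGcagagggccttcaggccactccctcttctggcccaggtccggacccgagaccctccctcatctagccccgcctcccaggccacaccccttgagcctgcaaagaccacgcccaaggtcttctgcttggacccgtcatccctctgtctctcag
The motif begins 159 bases before the start.

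Hadha and Hadhb encode the alpha and beta subunits of the trifunctional protein, which carries out the later steps on long chains, and the 2 genes lie head to head on chromosome 5. Hadha (30118304 to 30155162, minus strand) fell by 0.52 on the log2 scale (SE 0.11, adjusted p = 0.0044), with counts of 11984 to 18919.7 (median 14989) in HEM and 18131, 21990.4, 20164 and 23268 in WT at 13 months. Hadhb (30155248 to 30184593, plus strand) fell by 0.48 (SE 0.11, adjusted p = 0.00778), with counts of 9359.6 to 14512 (median 10894) in HEM and 15702, 17125, 16187 and 13911 in WT. In both genes HEM replicate 7 alone reached the WT range. The 85 bases between their annotated starts are shown because they lie before both starts. They are from RefSeq's promoter entry for Hadhb (GRCm38.p6, chr5:30155163-30155247, plus strand), 5′ to 3′, and held none of the 6 motifs searched, so no letter is in capitals.
Hadha-Hadhb: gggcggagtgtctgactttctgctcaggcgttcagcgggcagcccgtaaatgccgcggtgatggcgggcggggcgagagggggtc
Of these bases 69.4% are G or C.

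The other enzymes of the spiral also fell at 13 months. They were Eci1 (−0.64 ± 0.12, adjusted p = 0.00325) and Decr1 (−0.33 ± 0.10, adjusted p = 0.0347), which handle double bonds of unsaturated fatty acids, and Hadh (−0.42 ± 0.13, adjusted p = 0.0357), the short-chain hydroxyacyl-CoA dehydrogenase. Echs1 (ENSMUSG00000025465, chromosome 7, 140105710 to 140116476, minus strand), the short-chain enoyl-CoA hydratase, ran from 6035 to 7419 (median 6625) in HEM and held 7387, 8499, 8101 and 7706 in WT. Its fall of 0.26 on the log2 scale (adjusted p = 0.0148) was the smallest among the called genes, and its standard error of 0.067 was the smallest of the 38.

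Electron transfer flavoprotein collects electrons from the acyl-CoA dehydrogenases. Its alpha subunit gene Etfa (ENSMUSG00000032314, chromosome 9, 55454508 to 55512243, minus strand) had the smallest p of the 38 genes. Counts ran from 6009.5 to 10362 (median 7576) in HEM at 13 months and were 11358, 13964, 12737 and 12326 in WT. At 3 months they were 8276, 6235, 8218 and 7944 in HEM and 8148, 9459 and 8154 in WT. No HEM library reached the lowest WT library at 13 months, and the difference was −0.73 ± 0.12 (ratio 0.602, adjusted p = 0.00208). Etfdh, the ubiquinone oxidoreductase that hands these electrons to the respiratory chain, fell too (−0.58 ± 0.12, adjusted p = 0.0039).

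Etfb, the beta subunit, was called narrowly (−0.56 ± 0.18, adjusted p = 0.0493), with 3 of 8 HEM libraries at or above the lowest WT library. Its counts were low beside those of Etfa, at 733 ± 174 in HEM (SD, n = 8) and 1078 ± 239 in WT (n = 4) at 13 months, and 58.2% of its exon bases overlap other annotated genes.

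**Figure D4:**
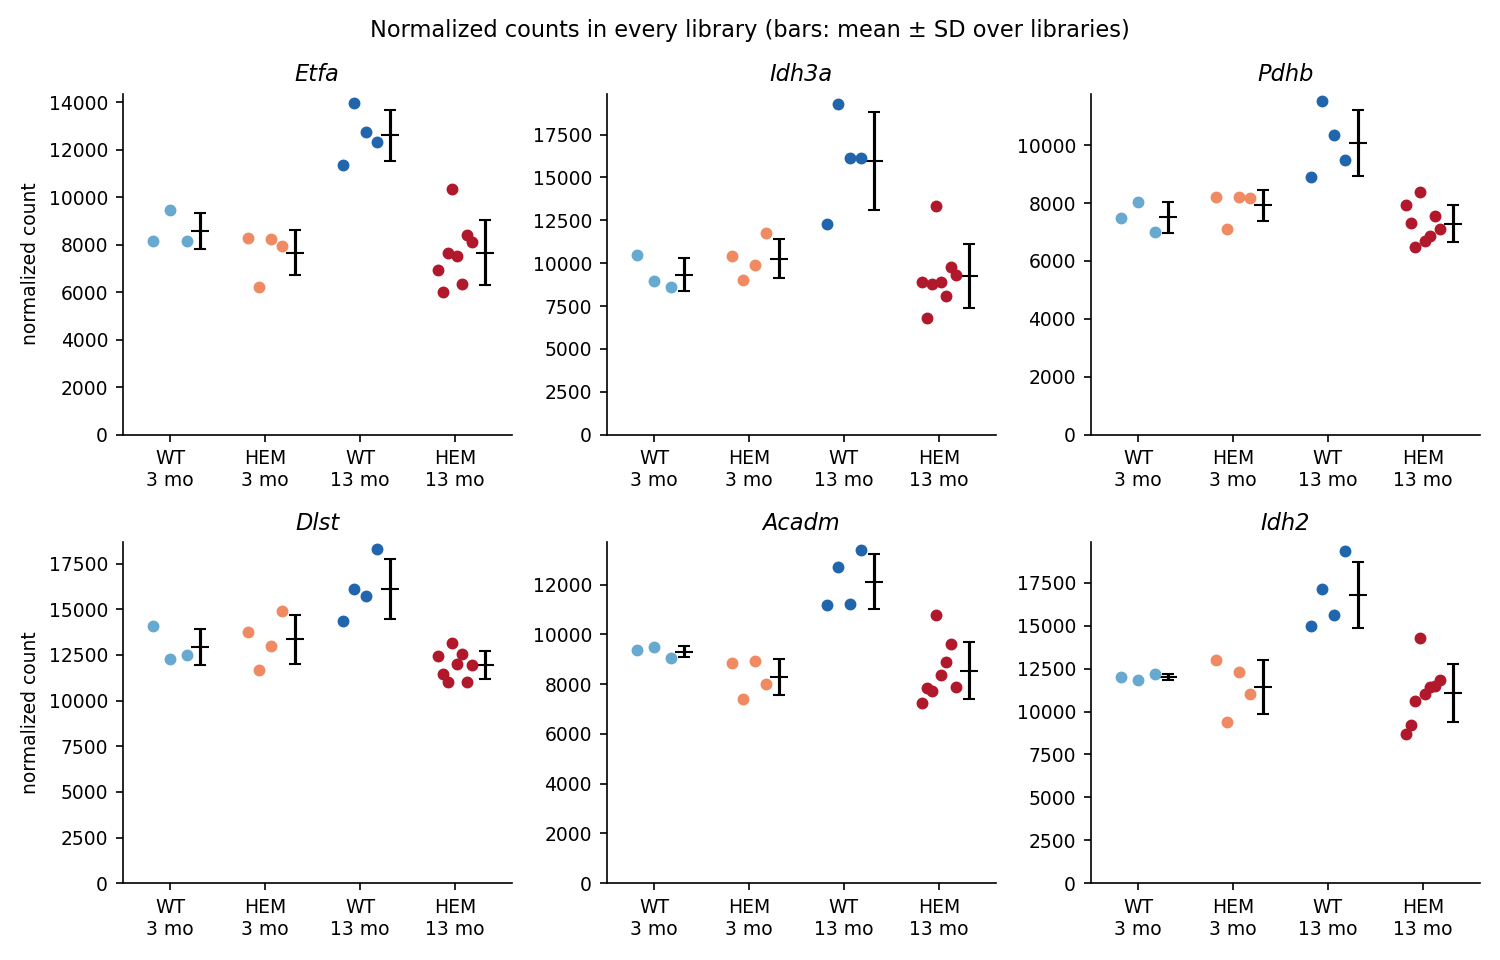
Normalized counts, vertical axis from 0, of the 6 genes with the smallest p at 13 months (Etfa, Idh3a, Pdhb, Dlst, Acadm and Idh2) in every library, with mean and SD over libraries as bars. For 5 of the 6 the WT libraries at 13 months lie above all 8 HEM libraries of that age, and for Idh3a HEM replicate 7, at 13322, lies within the WT range.

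On a per-length scale (mean normalized count over all 19 libraries per kilobase of exon), the 38 genes spanned 549 for Pdk4 to 5097 for Mdh2. Mdh2, Idh2 (4829), Etfa (4822) and Ogdh (4783) were followed by Idh3g (4299) and Acadl (4238). Pdk4, Pdhx (622), Mpc2 (631), Etfb (695) and Etfdh (719) were at the low end. These levels hold the unsorted material of the enrichment, and in such bulk RNA fewer cells of a type and less RNA per cell cannot be told apart.

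Of 71 other genes of the same pathways, all tested, 33 fell and 0 rose at 13 months, with a median of −0.32, where 7.3% of all tested genes were called lower and 13.7% at the level of the 38 genes or above. For the rest of the TCA cycle and complex II 7 of 13 fell, among them the succinate dehydrogenase subunits Sdha (−0.52 ± 0.079, adjusted p = 0.00176), Sdhc (−0.66 ± 0.10, adjusted p = 0.00185) and Sdhd (−0.51 ± 0.083, adjusted p = 0.00192) and the mitochondrial aspartate aminotransferase Got2 (−0.56 ± 0.095, adjusted p = 0.00213). Of 8 genes for ketone bodies and propionate 6 fell, led by Bdh1 (−0.89 ± 0.13, adjusted p = 0.00176), which interconverts the ketone bodies, Pccb (−0.57 ± 0.089, adjusted p = 0.00176), Mcee (−0.97 ± 0.16, adjusted p = 0.00208) and Oxct1 (−0.49 ± 0.084, adjusted p = 0.00221). Of 24 other mitochondrial fatty acid oxidation genes 10 fell, with Acat1 (−0.60 ± 0.10, adjusted p = 0.00185), Acad8 (−0.88 ± 0.16, adjusted p = 0.00265), Hsd17b10 (−0.44 ± 0.081, adjusted p = 0.00281) and Acadsb (−0.48 ± 0.09, adjusted p = 0.00285) at the smallest p.

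The same shares of 7.3% and 13.7% apply to the smaller lists. Of 5 cytosolic counterparts 4 fell, Mdh1 (−0.85 ± 0.14, adjusted p = 0.00208), Me1 (−0.76 ± 0.14, adjusted p = 0.00285), Aco1 (−0.47 ± 0.095, adjusted p = 0.00427) and Idh1 (−0.50 ± 0.11, adjusted p = 0.00579). Of 12 peroxisomal beta-oxidation genes 4 fell, among them Abcd3 (−0.36 ± 0.10, adjusted p = 0.0286), a membrane transporter, Scp2 (−0.32 ± 0.10, adjusted p = 0.035) and Hsd17b4 (−0.26 ± 0.078, adjusted p = 0.0379). Of 9 other pyruvate genes 2 fell, Ldhb (−0.83 ± 0.12, adjusted p = 0.00147), a lactate dehydrogenase subunit, and the kinase Pdk3 (−0.54 ± 0.15, adjusted p = 0.0219). The 24 other mitochondrial fatty acid oxidation genes above include 5 acyl-CoA synthetases, which charge fatty acids before entry. These 5 were not a list of their own among those fixed for the analysis. Of them 0 were called, with a median of 0.07. Beside shares of 7.3% and 13.7%, 0 of 5 does not mark them off, and no test set them against the enzymes downstream.

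Markers of other cells moved with the 13-month difference. The mean log2 level of the 12 neutrophil markers was 10.9 to 12.4 in WT and 11.8 to 15.1 in HEM at 13 months, with summed counts of 43975 to 117946 in WT and 71485 to 619983 in HEM. The 7 erythroid markers were at 13.1 to 14.3 in WT and 14.1 to 15.6 in HEM, and 2 of 7 were called higher. Monocyte markers were higher in HEM in 6 of 6 genes, with 4 called (median 1.63), and T and NK cell markers in 6 of 6, with 3 called (median 1.33). The 10 immediate early genes were at 11.8 to 14.2 in WT and 14.6 to 16.2 in HEM. At 3 months they were at 14.9 to 15.8 in WT and 14.9 to 15.7 in HEM, so WT at 13 months was the group that lay apart, below the other 3. No marker of these lists was at 0 in any group. The 10 microglia markers ranged from 15.2 to 16.1 in WT and 14.8 to 16.3 in HEM, and 0 of 10 were called. Their differences were below 0 in 9 of 10, with a median of −0.24. Most markers of choroid plexus and ependyma, tissues of the brain's ventricles, moved in the same direction as the 38 genes. Their summed counts were 3.43e+06 to 4.11e+06 in WT and 1.37e+06 to 2.68e+06 in HEM at 13 months without overlap. As mean log2 level they were at 14.09 to 14.46 in WT and 13.01 to 14.15 in HEM, with overlap. Of these markers 7 of 10 were called lower (median −0.91) and 2 of 10 had differences above 0. The part of blood cells in the fall of the metabolic genes was not tested beyond the covariate above, and that of handling or of choroid plexus and ependyma was not tested.

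Single libraries lay as follows on the scales of marker and gene level. HEM replicate 3 at 13 months had the lowest joint level of neutrophil and erythroid markers of its group, 13.01, just under the 13.11 of WT replicate 6, and it also had the lowest level of the 38 genes, 12.38 against 12.90. HEM replicate 7, with a marker level of 13.42, had the highest level of the 38 genes in its group, and it was the highest HEM library for 32 of the 38 genes. At 3 months the WT libraries, at 13.2 to 14.1 on the marker scale, held 12.63 to 12.69 for the 38 genes.

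**Figure D5:**
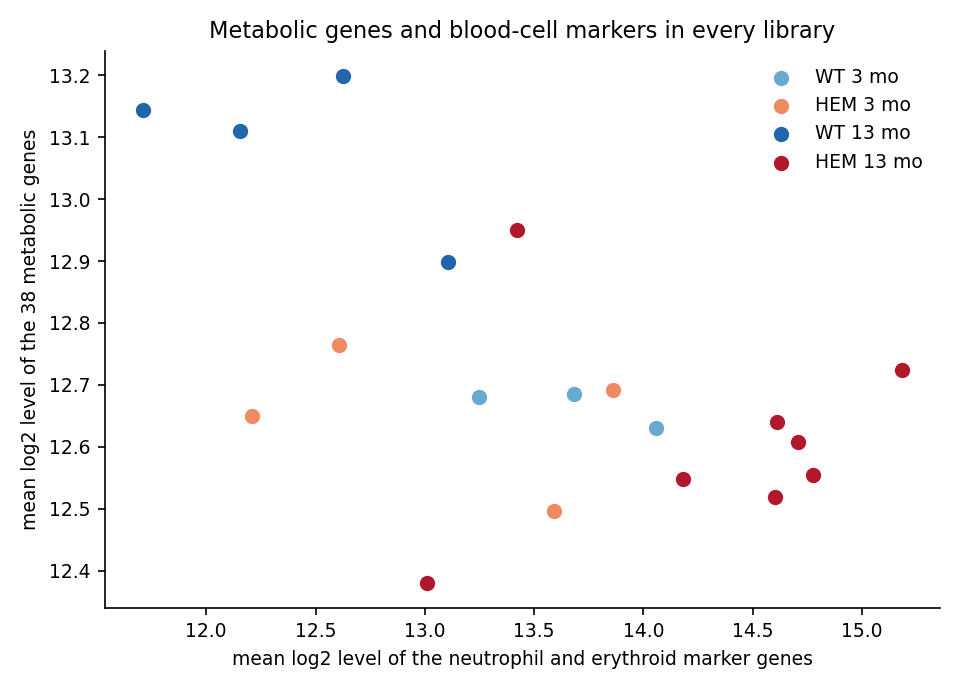
Mean log2 level of the 38 genes (vertical) against the mean log2 level of the neutrophil and erythroid markers (horizontal), 1 point per library. The 4 WT libraries at 13 months lie at the upper left, and HEM replicate 3 at 13 months lies lowest, at a marker level of 13.01 and a gene level of 12.38.

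At 3 months none of the 38 genes passed the test between HEM and WT. Of 23973 genes 0% were called in either direction by limma-trend, and 924 (3.85%) had an unadjusted p under 0.05, of which 0 were among the 38; DESeq2 called 6 genes and edgeR 0, none of them among the 38. The median difference of the 38 was −0.01, with 20 of 38 below 0 and a range of −0.33 to 0.18. The smallest p values belonged to Mpc1, lower in HEM (−0.23 ± 0.14, unadjusted p = 0.114, limma), Acadm, and on the other side Suclg2 (0.18 ± 0.16, unadjusted p = 0.25, limma) and Idh3g (0.09 ± 0.092, unadjusted p = 0.338, limma). Neuron markers at this age were higher in HEM in 11 of 11 genes (median 1.22). Neutrophil markers were lower in 12 of 12 (median −0.63) and erythroid markers in 7 of 7 (median −0.38). Of these markers 0 were called, and the part of these cells in the 3-month comparison was not tested.

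Mpc1 held 1472, 1189, 1331 and 1644 in HEM and 1902, 1636 and 1419 in WT at 3 months. Suclg2 held 4660.3, 4348, 5659.9 and 6084 in HEM and 5115, 4177 and 4331 in WT. In both genes the groups overlapped. The 95% interval was −0.52 to 0.06 for Mpc1 and −0.14 to 0.51 for Suclg2. For 7 of the 38 genes the 3-month interval held −0.47, the median of the 13-month differences, and for 31 it lay wholly above that value. This sets each gene against the median of the list and not against its own 13-month difference. For Pdk1 its own −0.25 lay within its 3-month interval of −0.43 to 0.26. Whether the ages differed was tested only with the interaction term below.

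Between 3 and 13 months, 2 of the 38 genes passed the test in WT and 0 in HEM. In WT all 38 differences, 13 minus 3 months, were above 0, with a median of 0.43, against −0.01 over all tested genes. Among all tested genes 0.463% were called higher and 0.246% lower. The 2 genes called were Idh3a, which rose by 0.76 ± 0.17 (adjusted p = 0.0487), and Echs1, which rose by 0.43 ± 0.084 (adjusted p = 0.0293). Echs1 held 5653, 6398 and 5593 in WT at 3 months and 7387, 8499, 8101 and 7706 at 13 months, and 5949.9, 5757, 6505 and 5982 in HEM at 3 months. For both genes the 4 older WT libraries lay above the 3 younger ones. The same separation held for 30 of the 38 genes, where 8.83% of tested genes showed it.

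The WT age calls depended on the tool and on single libraries. Idh3a lost its call in edgeR's test, which called 0.267% of tested genes higher (adjusted p = 0.0572), both were lost when any 1 of the WT libraries at 3 months or of WT replicates 7, 8 or 9 at 13 months was left out, and 7 of the 38 were called without WT replicate 6 (1.67% of tested genes higher) or HEM replicate 7 (1.45%) at 13 months. DESeq2 called 17 of the 38 and 3.47% of tested genes higher. Of the 71 other pathway genes 7 rose with age in WT: Acat1 (0.65 ± 0.12, adjusted p = 0.0224), Oxct1 (0.55 ± 0.10, adjusted p = 0.0252), Me1 (0.92 ± 0.17, adjusted p = 0.0252), Ldhb, Sdhd, Sdhc and Bdh1. The neutrophil markers were lower at 13 than at 3 months in WT in 12 of 12 genes and the immediate early genes in 10 of 10, of which 0 and 6 passed the test. The erythroid markers were lower in 7 of 7 genes, with 0 called, and the pericyte and smooth muscle markers in 6 of 6, with 3 called. Endothelial markers were lower in 7 of 7 (median −1.10) and monocyte markers in 6 of 6 (median −1.08), with 0 called in either list. Astrocyte markers were higher in 6 of 8, with 1 called. The choroid plexus and ependyma markers had a median of 0.51, with 7 of 10 above 0 and 0 called. The part of these cells in the age difference was not tested.

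In HEM 0 of the 38 were called between 3 and 13 months, where 0.684% of tested genes were called lower and 0.934% higher. The median was −0.04, with 23 of 38 below 0, and 2 of the 38 had an unadjusted p under 0.05, as did 16.6% of tested genes. These were Idh3g, lower at 13 months (−0.24 ± 0.074, unadjusted p = 0.0047, adjusted p = 0.109, limma), and Mpc1, higher (0.32 ± 0.11, unadjusted p = 0.0107, adjusted p = 0.156, limma). The second smallest p among genes lower at 13 months was that of Idh3b, at −0.18 ± 0.088 (unadjusted p = 0.0575, limma), and among higher ones that of Echs1, at 0.12 ± 0.067 (unadjusted p = 0.0805, limma). For Idh3g the 8 libraries at 13 months, 9276 to 11623, lay wholly below the 4 at 3 months, as in 1.36% of tested genes, and DESeq2 called it and 2.2% of tested genes lower (adjusted p = 0.0315).

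The genotype comparison at 13 months and the age comparison in WT share the same 4 WT libraries and are not independent. For Idh3a the values side by side were −0.79 for genotype at 13 months, 0.14 for genotype at 3 months, 0.76 for age in WT and −0.17 for age in HEM. For Etfa they were −0.73, −0.17, 0.55 and −0.01 in that order. Whether the genotype effect differed between the ages, which is the same as whether the age effect differed between the genotypes, was tested with the interaction term, and 0 of the 38 and 0% of tested genes passed by limma-trend. All 38 interaction terms were below 0 (median −0.47), and 26 of 38 had an unadjusted p under 0.05, as did 14.8% of tested genes in either direction. The smallest p values were those of Idh3a (−0.93 ± 0.22, adjusted p = 0.0922) and Pdhb (−0.54 ± 0.13, adjusted p = 0.0936). DESeq2 called 11 of the 38, all more negative at 13 months, and 2.35% of tested genes in that direction, while edgeR called 0.

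RefSeq's promoter table (GRCm38.p6, 250 bases before and 50 after each start) had entries for 36 of the 38 genes. On both strands the core NRF1 letters CGCATGCG were in the promoters of 3 of these 36 genes (8.33%: Acadm, Etfdh and Ogdh) and of 2.07% of all 27025 genes in the table, and the E-box CACGTG in 3 (8.33%: Ogdh, Pcx and Pdk2) against 8.09%. The YY1 letters AAGATGGCG were in 2 (5.56%: Eci1 and Idh3g) against 1.64%, the CREB letters TGACGTCA in 2 (5.56%: Mdh2 and Ogdh) against 2.03%, and the ETS and GABPA letters ACCGGAAGT in 1 (2.78%: Dlst) against 1.21%. TCAAGGTCA, the letters of the estrogen-related receptor, were in 0 of the 36 promoter sets and in 0.466% of all genes. No motif overlapped another in these promoters, the shares were not tested, and a match is a description of the letters only.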

How the data were processed

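Total RNA-seq values of 19 libraries were used, each from the file of its own sample. The deposited values are a signal: counts of reads per gene scaled by the authors with a size factor for each library. The scaling is inferred: within a tolerance of 0.01, 100% of the values were whole multiples of 1 step per library. Of recovered values of 1 to 10 reads, 63.1% to 69.4% per library were even, so recovered reads, which give the depths and enter edgeR and DESeq2, may not be independent fragments. Trimmomatic, HISAT2, featureCounts, DESeq2 and mm10 are named in the submitters' processing notes, while versions, roles, annotation and strand setting are not given in the sources used here. Column numbers of the series-wide table differ from those in the titles, and libraries carry the number in the title. GENCODE M21 gave symbols for 99.5% of IDs.

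Genes reaching 10 in 3 or more libraries were tested on log2(value + 1) with limma-trend and robust moderation (limma 3.58.1 in R 4.3.3). All 19 libraries shared 1 fit with a mean per group. P-values were two-sided with Benjamini-Hochberg adjustment, and a call needed an adjusted p under 0.05. The log2 scale understates changes of low genes. The step was tested on simulated data. The alternatives were edgeR 4.0.16 and DESeq2 1.42.0 on recovered reads, other filters, a pseudocount of 10, TMM scaling, reads thinned to 60 M, marker covariates, the compared groups alone, the title number as a block, and left-out libraries. The ratios were added after the values were seen.

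The members, the other pathway lists, the marker lists and the tests were chosen with earlier results of these data known. Values in every library are given for the called members of each comparison (at most 6 per direction, by p), for the 2 smallest p per direction where no member was called, and for the Pdk and Idh3 genes and Pdha1. From each other pathway list the called genes were named, at most 4 per comparison. Some genes are not reported here. Other members with values were singled out after these were seen.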

Additional observations from a re-analysis of the deposited data

Results flagged for a closer look

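Within the 3 groups of 4 or 8 libraries, 11 of 114 sets of values had 1 library far from the rest by Dixon's criterion, which chance gives in about 1 in 20 groups, and the sets of 1 group share their libraries. In HEM at 13 months the high library was replicate 7 each time: Idh3a at 13322, with the other 7 at 6808 to 9759.9, Ogdh at 29655 against at most 23864, Suclg2 at 7065 against at most 5451, and Hadha at 18919.7 against at most 15246. In HEM at 3 months replicate 3 was low for Pdhb (7119), Dlat (4609) and Etfa (6235), and replicate 7 was high for Pdha1 (8763) and Acadvl (5353). In WT at 13 months replicate 6 was low for Cpt2 (4129), where the others held 5643 to 5907, and replicate 8 was high for Decr1 (4906). Without HEM replicate 7 at 13 months 35 of the 38 genes were called lower at that age, and without WT replicate 6 at 13 months 32. No share of all tested genes called lower is given beside these counts.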

How the results depend on the processing

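For HEM against WT at 13 months, 27 to 34 of the 38 genes were called lower under edgeR, DESeq2, the other filters, a pseudocount of 10, TMM scaling, thinned reads, the neural marker covariate, the compared groups alone and without the 3 libraries that stand apart. Of the 32 called genes 18 kept the call in all 19 fits that left out 1 library, where the count ran from 19 (without WT replicate 7 at 13 months) to 35, and 0 reversed in direction under any alternative run. With the title number as a replicate block 0 were called (median −0.42, lowest adjusted p = 0.169, 5 residual degrees of freedom against 15), and the medians became −0.12 for genotype at 3 months, 0.20 for age in WT and −0.32 for the interaction. The titles do not say whether the numbers pair libraries. Deviations of same-numbered libraries correlated at 0.107 and 0.126 at 13 months and 0.021 and −0.038 at 3 months. Of 4 numbers 1 fitted its own partner best, and so few numbers cannot settle whether a pairing exists. The block also tied equal numbers across the ages, which was not examined. With the neutrophil and erythroid covariate 0 were called (lowest adjusted p = 0.363, 25 of 38 with an unadjusted p under 0.05). Shares of all tested genes are given above for some of these settings only. Where none is given, a count in this section shows only how far it moved with the setting.

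The 2 genes called higher with age in WT became 1 with edgeR, with a pseudocount of 10 and with thinned reads, 0 with no filter, with the compared groups alone, with the block and with the neutrophil and erythroid covariate, 5 with a filter at 50 and with the neural covariate, and 17 with DESeq2. Leaving out 1 library gave 0 to 7: 0 without each single WT library at 3 months and without WT replicates 7, 8 or 9 at 13 months, 7 without WT replicate 6 or HEM replicate 7 at 13 months, and 1 without HEM replicates 4, 8, 12 or 13 at 13 months or 1, 4 or 7 at 3 months. DESeq2 called 1 gene lower with age in HEM (Idh3g) and 11 for the interaction, for which leaving out HEM replicate 7 or WT replicate 6 at 13 months gave 5 and the range was 0 to 5. The causes were not tested. The lowest value of any of the 38 genes in any library was 526 normalized counts, and the number of libraries, 3 to 8 per group, limits precision.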
